A study of Homo sapiens with 18 samples.

Results

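S100A8, S100A9 and S100A16 are members of the S100 family of small calcium-binding proteins. They were taken from a deposited RNA sequencing table by their gene symbols, counting each set of values once, and make up 3 of the 5069 distinct sets of 18 values in that table. They were picked with results of these data known: S100A8 and S100A9 for their levels in OCI-AML2 cells carrying a targeted CASP2 gene, and S100A16 for its level in the corresponding OCI-AML3 cells. Their differences between clones and parental cells in those lines are therefore given as a description, with no test. The same holds for S100A8 and S100A9 between the OCI-AML2 clones.

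RNA was sequenced from 2 leukaemia lines, both derived from human acute myeloid leukaemia: OCI-AML3, which is NPM1c+ (a mutant nucleophosmin that lies in the cytoplasm), and OCI-AML2, which is NPM1WT. The groups were OCI-AML3 Caspase-2 KO clone 1, OCI-AML3 Caspase-2 KO clone 2, OCI-AML3 Caspase-2 WT parental cells, OCI-AML2 Caspase-2 KO clone 1, OCI-AML2 Caspase-2 KO clone 2 and OCI-AML2 Caspase-2 WT parental cells, with 3 libraries each and 18 in all. The clones had been made with CRISPR/Cas9 against CASP2, which encodes the protease caspase-2, all cells were untreated and were grown in RPMI with serum, and the question was what caspase-2 does in each NPM1 background. Each knockout group is a single clone, both clones of a line share the same parental libraries, and the labels do not say whether replicate libraries came from separate cultures, so p-values measure only the spread between these libraries, which may be technical.

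S100 proteins bind calcium through EF-hand motifs and then change shape and bind partner proteins. S100A8 and S100A9 pair to form calprotectin, an abundant cytosolic complex of neutrophils and monocytes that binds zinc and manganese, and that acts outside the cell as an alarmin through TLR4 and the receptor AGER. Their transcripts rise as myeloid precursors mature. S100A16 is a widely expressed family member that is not part of calprotectin.

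The values are TPM (abundances scaled for transcript length and library size), so levels of different genes can be compared, but the number of reads behind a value is unknown. The table is a selection of genes with a difference and covers 170140 to 199403 TPM of each library. A difference tested here may itself have placed a gene in the table, which would favour its p-value. The symbols of the table are partly mislabelled, so that 2430 of the 5069 sets have a settled symbol. CASP2 itself, whose symbol rests on a single line of the table, lay between 26.3 and 27.8 TPM in OCI-AML3 clone 1 and between 29.8 and 35.4 TPM in OCI-AML3 clone 2, against 28.0 to 30.1 TPM in OCI-AML3 parental cells. In OCI-AML2 it lay between 3.00 and 3.93 TPM in clone 1 and between 3.27 and 5.06 TPM in clone 2, against 35.3 to 37.3 TPM in parental cells. CASP2 mRNA was thus low in the clones of OCI-AML2 and not in the clones of OCI-AML3, and directions in OCI-AML3 refer to the clones labelled as knockouts. Of the 11 genes listed as markers of myeloid leukaemia cells only HOXA9 had a settled symbol, and it was present in all groups, between 53.1 and 171 TPM.

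The 3 genes lie in the S100 cluster on chromosome 1. In the RefSeq order of protein-coding genes S100A9, S100A12 and S100A8 are immediate neighbours, and 7 genes stand between S100A8 and S100A16. The promoters are shown because S100A8 and S100A9 moved together while S100A16 did not move with them. Each window covers 250 bases before to 50 bases after a RefSeq transcript start in GRCh38.p14. S100A8 is at chr1:153391024-153391323 on the minus strand, S100A9 at chr1:153357604-153357903 on the plus strand and S100A16 at chr1:153613088-153613387 on the minus strand. Capitals mark matches, on either strand, to 5 motifs. They are the core promoter box, searched as TATAAA, and the letters of binding motifs of C/EBP factors, searched as TTNNGNAA, of ETS factors, searched as GAGGAA, of AP-1, searched as TGANTCA, and of STAT factors, searched as TTCNNNGAA. No match overlapped another.
S100A8: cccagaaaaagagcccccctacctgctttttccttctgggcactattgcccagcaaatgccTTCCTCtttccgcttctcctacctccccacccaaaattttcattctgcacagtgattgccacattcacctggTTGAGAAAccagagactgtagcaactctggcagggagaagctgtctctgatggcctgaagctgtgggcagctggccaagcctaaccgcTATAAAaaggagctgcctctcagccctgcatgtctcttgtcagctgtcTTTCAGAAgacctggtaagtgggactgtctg
S100A9: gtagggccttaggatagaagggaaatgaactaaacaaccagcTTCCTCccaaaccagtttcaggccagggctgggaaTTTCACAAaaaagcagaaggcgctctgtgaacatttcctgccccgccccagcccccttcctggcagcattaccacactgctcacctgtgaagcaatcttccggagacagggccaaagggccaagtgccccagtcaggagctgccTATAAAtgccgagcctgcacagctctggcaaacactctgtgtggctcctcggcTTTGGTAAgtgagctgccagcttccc
S100A16: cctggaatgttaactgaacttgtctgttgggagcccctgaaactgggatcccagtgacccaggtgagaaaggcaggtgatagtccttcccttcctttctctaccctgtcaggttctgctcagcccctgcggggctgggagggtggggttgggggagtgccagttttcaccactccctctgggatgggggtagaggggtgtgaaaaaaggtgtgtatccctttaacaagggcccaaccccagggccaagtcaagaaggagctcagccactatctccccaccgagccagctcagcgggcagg

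S100A8 and S100A9 each held TATAAA starting 29 bases before the start, 2 C/EBP matches and 1 ETS match. S100A8 has 3 annotated windows, and the one shown was taken because it holds TATAAA between 20 and 40 bases before its start, so that position was part of the choice. S100A9 has a single window. The C/EBP matches began 117 bases before and 19 bases after the S100A8 start, and 173 bases before and 24 bases after the S100A9 start. The ETS match lay 189 bases before the S100A8 start and 208 bases before the S100A9 start. S100A16 has 2 annotated windows, and the one shown was nearest to the start of its reference transcript, 54 bases away. None of the 5 motifs was found in it, and the other window is not shown. S100A12, which was high in the same OCI-AML2 clones as S100A8 and S100A9, was searched too and is not shown. Its single window lies 28 bases from the start of its reference transcript. That window held 2 C/EBP matches, 1 AP-1 match and no ETS match, with TATAAA starting 8 bases before the start. The layout shared by S100A8 and S100A9 was thus not found in S100A12. The S100A8 window shown lies 115 bases from the start of the S100A8 reference transcript. Of all 35116 promoter windows in the RefSeq table, 11.5% held TATAAA anywhere, 2.3% held it between 20 and 40 bases before the start, 36.8% held the C/EBP letters and 27.9% the ETS letters. The AP-1 letters stood in 7.71% and the STAT letters in 7.66%. A match describes letters and does not show binding.

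S100A8, the smaller calprotectin subunit, was high in OCI-AML2 clones and low everywhere else. It measured 692, 855 and 1023 TPM in the 3 libraries of OCI-AML2 clone 1 and 685, 682 and 535 TPM in those of clone 2, against 12.6, 17.8 and 15.5 TPM in OCI-AML2 parental cells. Every clone library was far above every parental library, and clone 1 lay above clone 2 without overlap. Of all sets, 60.8% did not overlap between clone 1 and parental cells and 67.5% did not between clone 2 and parental cells. The ratio of mean TPM was 56.0 for clone 1 and 41.4 for clone 2, which on the log2(TPM + 1) scale are differences of 5.71 and 5.29. Both have rank 4 from the top among the 4413 sets tested, those that reached 1 TPM in 3 or more libraries. In a bulk sample, more cells that express a gene and more RNA per cell cannot be told apart.

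S100A9, the other calprotectin subunit, was the more abundant of the pair in every library. It measured 2586, 2298 and 2735 TPM in OCI-AML2 clone 1 and 1664, 1593 and 1398 TPM in OCI-AML2 clone 2, against 72.8, 87.2 and 77.8 TPM in OCI-AML2 parental cells. The libraries of the 3 groups did not overlap. The ratio of mean TPM was 32.0 for clone 1 and 19.6 for clone 2, and the log2 differences of 4.98 and 4.27 have ranks 7 and 9 from the top. Together both subunits reached 3400 ± 320 TPM in clone 1 and 2190 ± 222 TPM in clone 2, against 94.6 ± 9.91 TPM in parental cells (SD, n = 3 each).

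**Figure D1:**
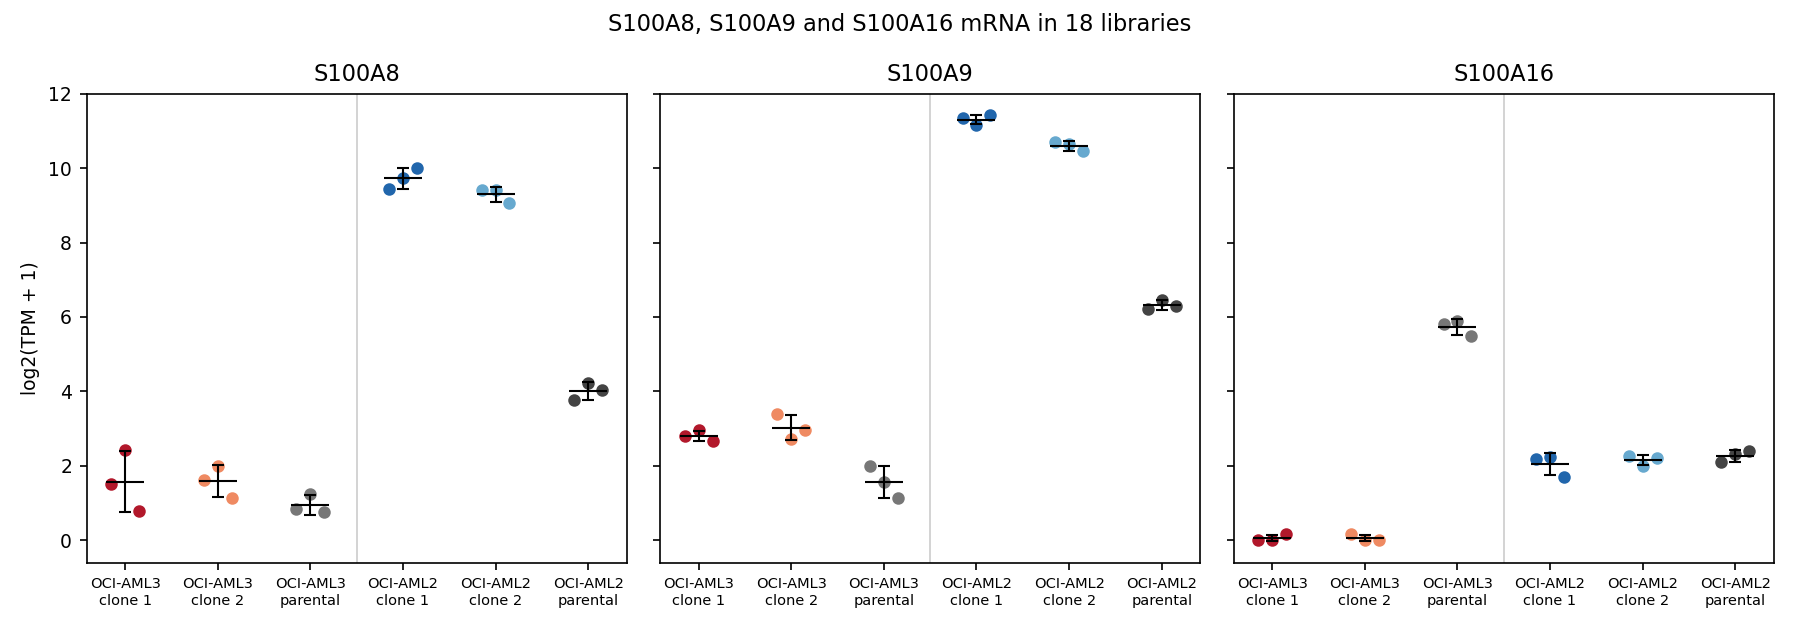
Level of S100A8, S100A9 and S100A16 as log2(TPM + 1) on the y axis in each of the 18 libraries (points), by group on the x axis, with the group mean (horizontal line) and SD over 3 libraries (error bars). S100A8 and S100A9 are high in both OCI-AML2 clones (means of 857 and 634 TPM, and of 2539 and 1552 TPM), and S100A16 is high only in OCI-AML3 parental cells (52.4 TPM) among these groups.

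Differences between the OCI-AML2 clones are a description with no test too, since the levels of both clones entered the choice of S100A8 and S100A9. S100A9 was 1.64-fold higher in clone 1 than in clone 2, a log2 difference of 0.71 (SE 0.18). S100A8 differed by 0.43 (SE 0.30, 95% interval -0.20 to 1.05). The S100A8 libraries of both clones do not overlap. Between these clones 58.9% of all sets passed the threshold and 60.3% did not overlap, so such a difference was common in the table.

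In OCI-AML3 the calprotectin genes were near the lower end of the scale, and S100A9 rose in both clones. S100A9 measured 5.90, 6.73 and 5.35 TPM in OCI-AML3 clone 1 and 9.47, 5.63 and 6.71 TPM in OCI-AML3 clone 2, against 3.01, 1.94 and 1.19 TPM in OCI-AML3 parental cells. Every clone library was above every parental library, while the clones overlapped each other. The difference was 1.24 for clone 1 (SE 0.18, limma adjusted p = 5.1e-06) and 1.46 for clone 2 (SE 0.18, limma adjusted p = 6.7e-07), or 2.93-fold and 3.55-fold on mean TPM. These S100A9 values stand on 3 lines of the table, which selects genes with a difference. Whether the OCI-AML3 change placed any of these lines there was not tested, so these p-values may be favoured by the selection. Of all sets, 31.3% were called higher in clone 1, 31.6% in clone 2 and 28.7% in both, while 74.9% did not overlap with parental cells in clone 1 and 75.1% did not in clone 2. The clones differed by -0.22 (95% interval -0.59 to 0.15, limma adjusted p = 0.502), in a comparison where 6.82% of all sets passed and 27.8% did not overlap. That comparison called 301 sets, and between 102 and 369 when 1 library was left out.

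S100A8 measured 1.84, 4.36 and 0.73 TPM in OCI-AML3 clone 1 and 2.09, 3.01 and 1.19 TPM in OCI-AML3 clone 2, against 0.79, 1.38 and 0.69 TPM in OCI-AML3 parental cells. The groups overlapped. The difference from parental cells was 0.62 for clone 1 (SE 0.30, 95% interval -0.01 to 1.25, limma adjusted p = 0.0703) and 0.64 for clone 2 (95% interval 0.01 to 1.27, limma adjusted p = 0.0638), and neither passed the threshold, which 72.2% of all sets passed in clone 1 and 73.1% in clone 2. The call depends on single libraries. Without library 3 of clone 1 the difference of clone 1 was 1.01 (limma adjusted p = 0.00264), and without library 2 of the parental cells it was 0.77 (limma adjusted p = 0.0482). The difference of clone 2 passed without library 2 of the parental cells (0.79), without its own library 3 (0.87), and, through the shared spread, without library 2 or library 3 of clone 1 (0.64 each). The clones differed by -0.01 (95% interval -0.64 to 0.62, limma adjusted p = 1).

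Between the parental lines, S100A8 in OCI-AML3 stood at 6.23% of its mean TPM in OCI-AML2 (log2 difference -3.07, SE 0.30). S100A9 in OCI-AML3 stood at 2.58% of its mean TPM in OCI-AML2 (log2 difference -4.76, SE 0.18). No library of OCI-AML3 parental cells reached the lowest of OCI-AML2. Both differences are a description with no test, since the OCI-AML2 parental level entered the choice of these genes. They also stand in the list of the table that holds genes different between the parental lines. In that comparison the test called 90.6% of all sets, 43.4% as lower and 47.2% as higher in OCI-AML3, and 91.3% did not overlap. The rank order of group means was the same for both genes in OCI-AML2, with clone 1 above clone 2 above parental cells. In OCI-AML3 the means of the clones were above parental cells and overlapped each other for both genes. Whether the clone changes of OCI-AML2 and OCI-AML3 differ was not tested, since the choice of genes rests on the OCI-AML2 changes.

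**Figure D2:**
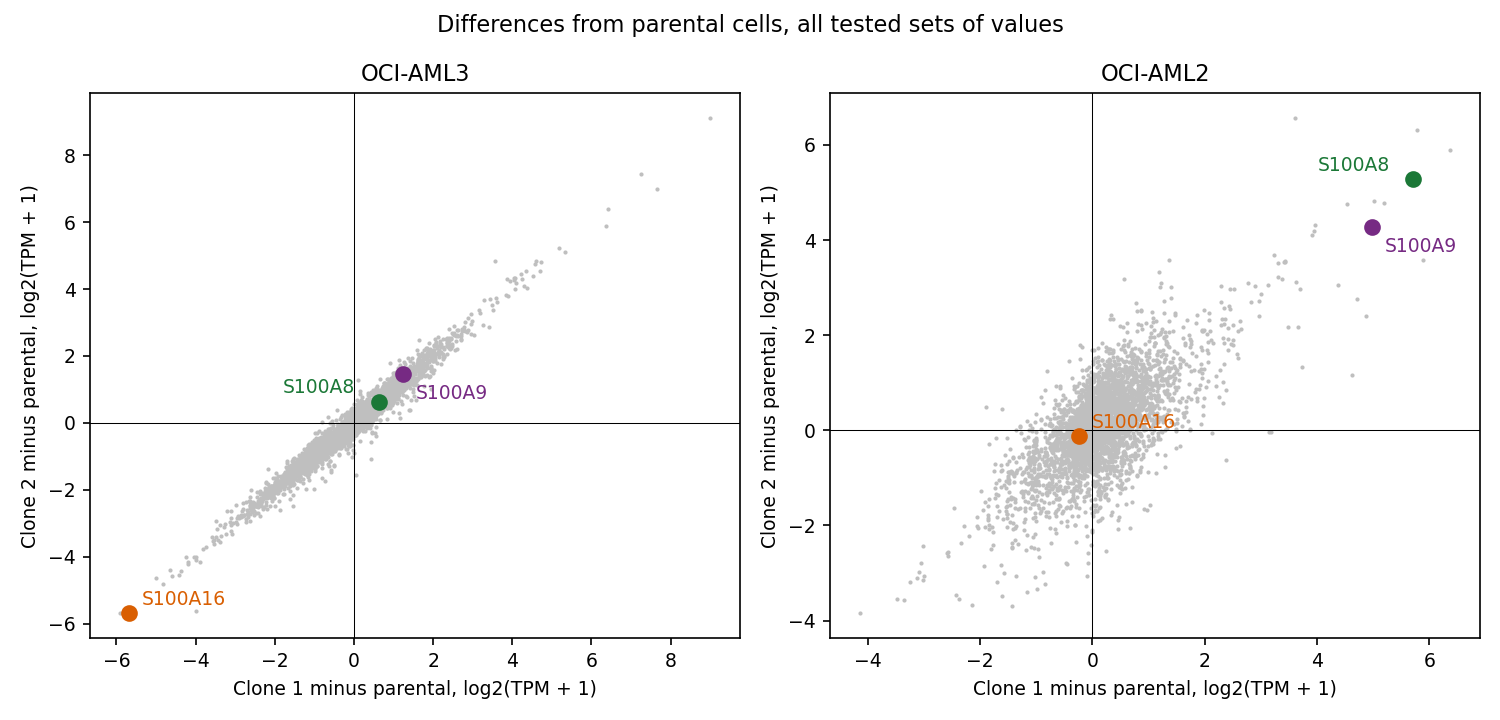
Log2(TPM + 1) difference of clone 1 from parental cells on the x axis and of clone 2 from the same parental cells on the y axis, for the 4413 sets (points), with OCI-AML3 and OCI-AML2 in separate panels. S100A8 (5.71 and 5.29) and S100A9 (4.98 and 4.27) lie at the upper right in OCI-AML2 and S100A16 (-5.68 and -5.68) at the lower left in OCI-AML3.

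The balance of the calprotectin subunits was read as S100A8 TPM over S100A9 TPM within a library. It was 0.268, 0.372 and 0.374 in OCI-AML2 clone 1 and 0.411, 0.428 and 0.383 in OCI-AML2 clone 2, against 0.173, 0.204 and 0.199 in OCI-AML2 parental cells. The clone libraries all lay above the parental ones, by 0.80 and 1.09 on the log2 scale, which is a description because both genes were chosen on these groups. The ratio in clone 1 was lower than in clone 2 in every library, by 0.29 on the log2 scale (log2 difference -0.29), a description for the same reason. In OCI-AML3 the ratio averaged 0.365 ± 0.26 in clone 1 and 0.311 ± 0.195 in clone 2, against 0.518 ± 0.231 in parental cells (SD, n = 3 each). These overlapped (exact permutation p = 0.6 for clone 1 and p = 0.2 for clone 2), and the S100A8 levels behind them are at most 4.36 TPM. OCI-AML3 parental cells were above OCI-AML2 parental cells by 1.31 on the log2 scale without overlap. That difference is a description too, since the OCI-AML2 parental levels entered the choice of both genes.

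**Figure D3:**
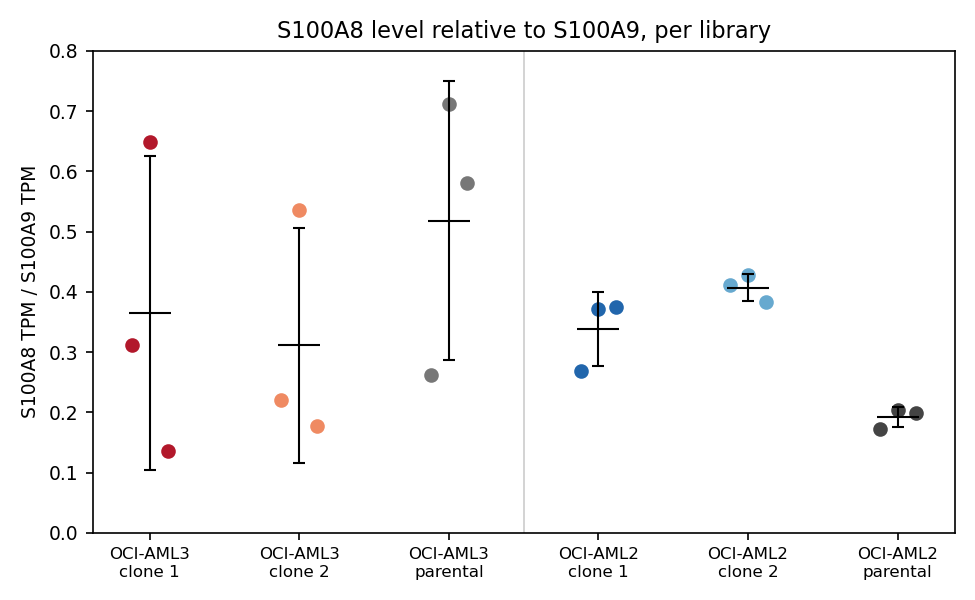
Ratio of S100A8 TPM to S100A9 TPM on the y axis in each library (points), by group on the x axis, with the group mean (horizontal line) and SD over 3 libraries (error bars). OCI-AML2 clones lie between 0.268 and 0.428, above OCI-AML2 parental cells at 0.173 to 0.204, and the OCI-AML3 groups overlap one another.

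S100A16 showed another pattern: it was high in OCI-AML3 parental cells and nearly absent from both OCI-AML3 clones. It was listed at 0, 0 and 0.11 TPM in OCI-AML3 clone 1 and at 0.11, 0 and 0 TPM in OCI-AML3 clone 2, against 55.0, 58.1 and 44.0 TPM in OCI-AML3 parental cells. In each clone 1 library holds a trace and the others are listed at 0. The log2 difference was -5.68 for each clone, and the clone means are 0.07% of the parental mean. Both differences have rank 2 from the bottom among the 4413 sets. With a pseudocount of 0.1 TPM in place of 1 the difference was -8.67 for each clone, so its size depends on that choice.

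In OCI-AML2, S100A16 measured 3.56, 3.68 and 2.27 TPM in clone 1 and 3.76, 3.00 and 3.58 TPM in clone 2, against 3.27, 3.99 and 4.28 TPM in parental cells. The 3 groups overlapped. The difference from parental cells was -0.23 for clone 1 (SE 0.13, 95% interval -0.51 to 0.05, limma adjusted p = 0.16) and -0.12 for clone 2 (95% interval -0.40 to 0.16, limma adjusted p = 0.456). In the comparison of clone 1, 56.0% of all sets passed and 20.9% were called lower, and in that of clone 2, 65.7% passed and 27.5% were called lower. After rescaling the libraries by medians of ratios the clone 1 difference was -0.31 and passed (limma adjusted p = 0.0369). The clones of OCI-AML2 differed by -0.11 (95% interval -0.39 to 0.17, limma adjusted p = 0.542), and those of OCI-AML3 were both at or near 0 TPM and are not compared. Between the parental lines mean S100A16 was 13.6-fold higher in OCI-AML3 than in OCI-AML2 (log2 difference 3.46), a description with no test, since the OCI-AML3 parental level entered the choice of the gene and since it too stands in the list of genes different between the lines. The order of group means ran from OCI-AML3 parental cells through the overlapping OCI-AML2 groups to the OCI-AML3 clones.

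Of 17 other S100 genes, the symbols of 7 stood in the table, and the only line under S100P belonged to another gene. The symbol was settled for 4 of the 7: S100A4, S100A6 and S100A10, which bind cytoskeletal and annexin partners, and S100A12, an alarmin of neutrophils that lies between S100A9 and S100A8. For S100A6 the symbol rests on a single line taken as printed. In OCI-AML3, 3 of the 4 fell in both clones, where 38.3% of all sets did. S100A4 averaged 7.17 TPM in clone 1 and 7.17 TPM in clone 2, against 40.9 TPM in parental cells, with log2 differences of -2.36 and -2.35 (limma adjusted p = 1.4e-09 each). S100A10, the partner of annexin A2, differed by -1.93 and -1.97, and S100A6 by -1.13 and -1.53. The median over the 4 genes was -1.64, against -0.06 over all sets tested. S100A12 was listed at 0 in clone 1 and in parental cells and averaged 0.117 TPM in clone 2.

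In OCI-AML2, S100A12 was high in the same clones as its neighbours. It averaged 50.9 ± 16.6 TPM in clone 1 and 43.4 ± 5.81 TPM in clone 2, against 0.623 ± 0.54 TPM in parental cells (SD, n = 3 each), with log2 differences of 5.02 and 4.83. Its symbol was accepted because of a large clone change, so these differences carry no test. S100A4 rose in clone 1 by 0.90 (limma adjusted p = 3.6e-04) and differed by 0.27 in clone 2 (limma adjusted p = 0.205), and S100A6 rose in clone 1 by 0.91 (limma adjusted p = 9.2e-07) and differed by 0.01 in clone 2 (limma adjusted p = 0.993). Of all sets, 35.1% were called higher in clone 1 and 38.3% in clone 2. Between the clones, clone 1 was above clone 2 by 0.63 for S100A4 (SE 0.18, limma adjusted p = 0.00624) and by 0.90 for S100A6 (SE 0.11, limma adjusted p = 1.1e-06). S100A10 differed by 0.05 and 0.07. S100A6 stands between S100A8 and S100A16 in the gene order, as does S100A4.

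**Figure D4:**
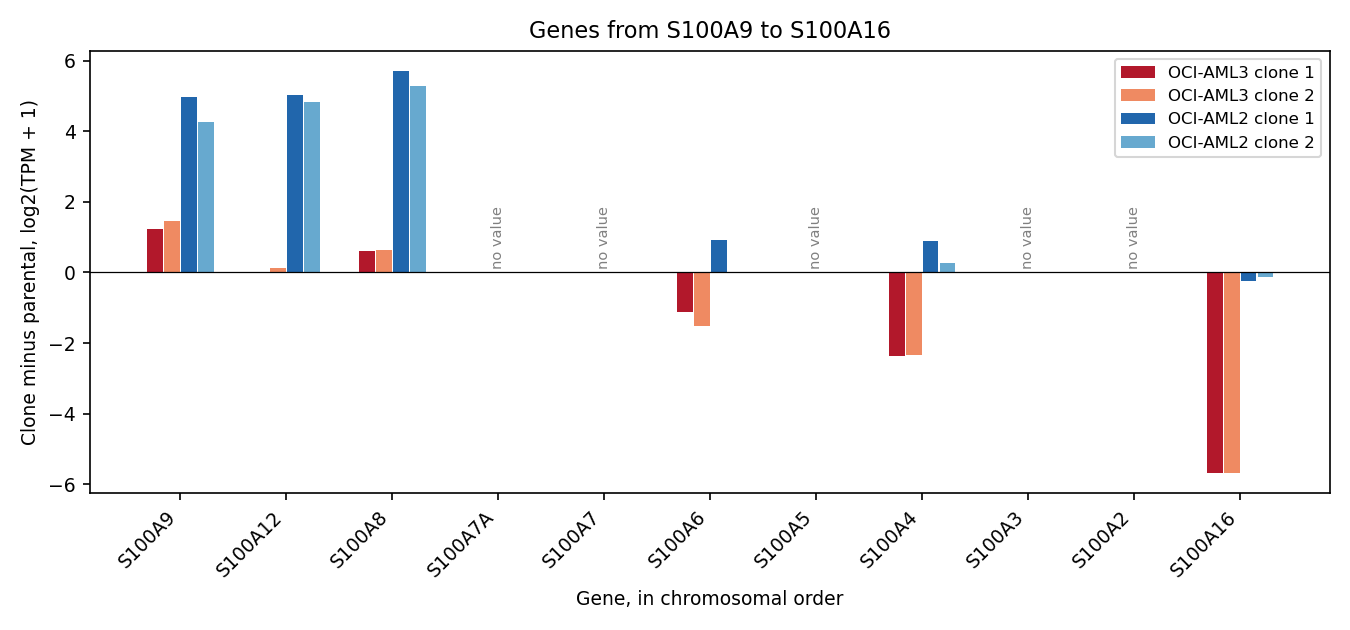
Log2(TPM + 1) difference of each of the 4 clones from its parental cells (bars) on the y axis for the genes from S100A9 to S100A16 in RefSeq gene order on the x axis, where genes without a settled symbol are marked as having no value. In OCI-AML2 S100A9, S100A12 and S100A8 stand high, while in OCI-AML3 S100A6, S100A4 and S100A16 stand below 0.

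Among the receptors of calprotectin, TLR4 rose in both clones of both lines. Of 12 listed receptors and co-receptors, 6 had a settled symbol. In OCI-AML3, 4 rose in both clones and 1 fell, against 28.7% and 38.3% of all sets. CD14, the co-receptor of TLR4, rose by 4.60 and 4.84, the scavenger receptor CD36 by 4.30 and 4.08, AGER by 1.22 and 1.48 and TLR4 itself by 1.31 and 1.28, while the adhesion molecule ALCAM had differences of -2.62 and -2.71. The limma adjusted p of each was at most 1.4e-09. In OCI-AML2, TLR4 rose in both clones (0.78 and 0.65, limma adjusted p = 2.1e-06 and 1.3e-05), in a line where 23.8% of all sets were higher in both clones and 14.6% were lower. CD14 was lower there (-0.68 and -0.86, limma adjusted p = 1.8e-04 and 9.8e-06), as was CD69, a lymphocyte activation marker that also binds S100A8 and S100A9 (-2.57 and -2.55), whose symbol rests on its large clone change. AGER rose in clone 1 (0.38, limma adjusted p = 7.3e-04) and differed by 0.11 in clone 2, while CD36 (0.79, limma adjusted p = 6.6e-06) and ALCAM (0.62, limma adjusted p = 3.7e-05) rose in clone 2 and differed by -0.13 and 0.21 in clone 1. The difference between the lines was not tested.

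Genes of the phagocyte NADPH oxidase, the enzyme complex that makes superoxide and to which calprotectin delivers arachidonic acid, were settled for 2 of the 5 considered. CYBB, the catalytic subunit, averaged 45.5 TPM in OCI-AML3 clone 1 and 46.7 TPM in OCI-AML3 clone 2, against 0.277 TPM in OCI-AML3 parental cells, and NCF1, a cytosolic activator, averaged 345 and 397 TPM, against 37.9 TPM. Both rose in both OCI-AML3 clones, CYBB by 5.19 and 5.23 and NCF1 by 3.16 and 3.36 (limma adjusted p at most 5.4e-14). In OCI-AML2 both rose in both clones as well, CYBB by 0.55 and 1.45 and NCF1 by 0.55 and 1.76 (limma adjusted p at most 5.6e-04). Of all sets, 28.7% were higher in both OCI-AML3 clones and 23.8% in both OCI-AML2 clones.

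Of 27 genes of neutrophil and monocyte maturation, 12 had a settled symbol and 11 could be tested. In OCI-AML2, 8 of the 11 were called higher in both clones and 0 lower in both, beside 23.8% and 14.6% of all sets, with a median of 1.71 against 0.06 over all sets. The count is a description, since the symbol of MMP8 was accepted for its large change. In addition, MMP8, ITGAM, FPR1 and FPR2 passed the filter on low values only through the OCI-AML2 clones. CEACAM6, a surface glycoprotein of maturing granulocytes, averaged 117 TPM in clone 1 and 169 TPM in clone 2, against 1.14 TPM in parental cells. BPI, a granule protein that binds bacterial endotoxin, averaged 171 TPM in clone 1 and 33.8 TPM in clone 2, against 1.88 TPM. The formyl peptide receptors FPR1 (1.84 and 1.57) and FPR2 (1.54 and 1.18), the proteases MMP8 (2.83 and 2.70) and MMP9 (2.05 and 1.63), ANXA1 and ITGAM were the others. The granule proteases PRTN3 (0.58 and -0.48) and CTSG (0.28 and -1.14) were called higher in clone 1 and lower in clone 2 (limma adjusted p at most 0.00189), and AZU1 was called higher in clone 1 alone (1.69 and 0.20). In OCI-AML3, 4 of the 11 were called higher in both clones (MMP9, ANXA1, FPR1, FPR2) and 3 lower in both (ITGAM, PRTN3, CTSG), with a median of 0.10 against -0.06. These counts are near the 28.7% and 38.3% of all sets. ITGAM was at most 0.24 TPM and FPR2 at most 0.77 TPM in any OCI-AML3 library. FPR1 averaged 0.683 TPM in OCI-AML3 clone 2, whose libraries overlapped parental cells.

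Of 16 myeloid transcription factors only KLF5 and IRF8 were settled. KLF5 rose by 1.03 and 1.19 in the OCI-AML3 clones and by 1.76 and 1.87 in the OCI-AML2 clones (limma adjusted p at most 1.5e-08). IRF8, a factor of monocyte development, fell in the same 4 clones, with differences of -0.87 and -0.70 in OCI-AML3 and of -1.12 and -0.35 in OCI-AML2 (limma adjusted p at most 1.1e-04). Of 11 annexins and calcium partners, ANXA2 and ANXA5 were settled, and both fell in the OCI-AML3 clones (-1.37 and -1.31 for ANXA2, a mean of both clones of -1.07 for ANXA5, limma adjusted p at most 6.3e-10). ANXA5 rose in the OCI-AML2 clones by 0.25 and 0.72 (limma adjusted p = 0.00241 and 1.2e-08), while ANXA2 was lower in clone 1 and higher in clone 2 (-0.56 and 0.38, limma adjusted p = 5.8e-05 and 0.00163). The shares of all sets called in both clones were 28.7% for higher and 38.3% for lower in OCI-AML3, and 23.8% for higher and 14.6% for lower in OCI-AML2. The C/EBP genes and SPI1, whose motifs were searched in the promoters, had no settled symbol.

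**Figure D5:**
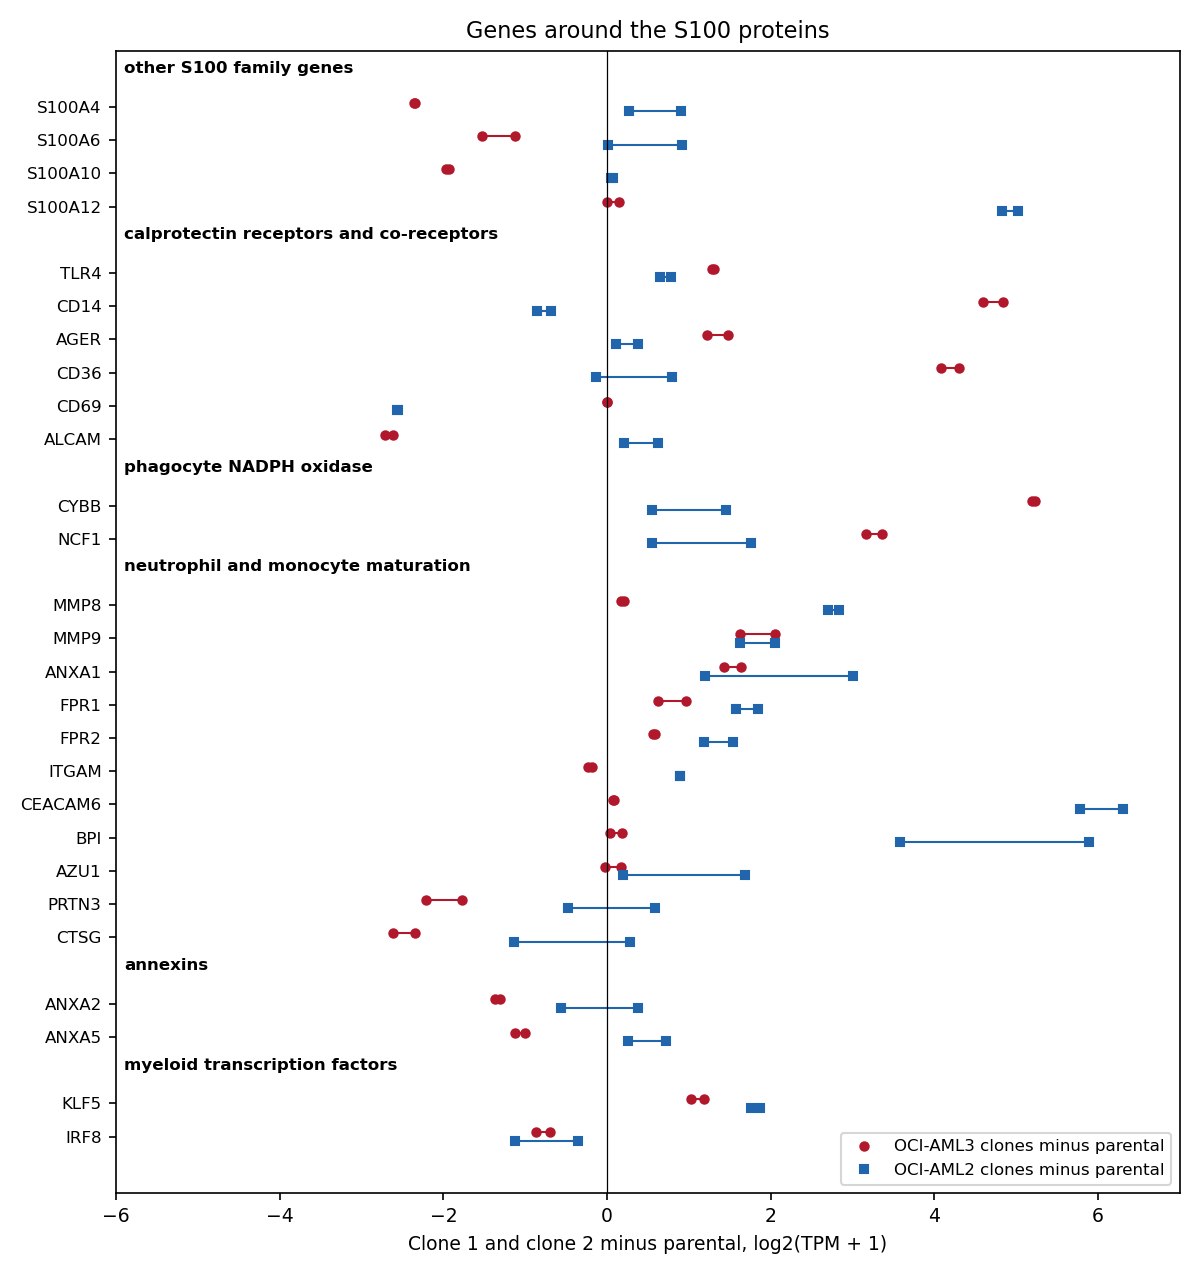
Log2(TPM + 1) difference of clone 1 and of clone 2 from parental cells (a pair of joined points) on the x axis for the settled genes of each list, with OCI-AML3 as circles and OCI-AML2 as squares. In OCI-AML2 the maturation genes have a median of 1.71, and in OCI-AML3 the other S100 genes have a median of -1.64.

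The summed level of 3 lymphoid markers was higher along with S100A8 and S100A9 in the OCI-AML2 clones. It was lower in the OCI-AML3 clones, where S100A9 rose. Of 10 lymphoid markers 3 had a settled symbol (CD3D, CD79B and NKG7), and their summed level was 138 to 155 TPM in OCI-AML2 clone 1 and 165 to 207 TPM in OCI-AML2 clone 2, against 68.5 to 73.2 TPM in OCI-AML2 parental cells. In OCI-AML3 it was 2.71 to 3.94 TPM in clone 1 and 2.88 to 6.29 TPM in clone 2, against at least 13.3 TPM in each library of parental cells. CD3D, which defines T cells, averaged 1.33 TPM in OCI-AML2 clone 1 and 1.37 TPM in OCI-AML2 clone 2 and was listed at 0 in the other groups. NKG7 made up most of the sum, with means of 129 TPM in OCI-AML2 clone 1, 173 TPM in OCI-AML2 clone 2 and 69.2 TPM in OCI-AML2 parental cells. The CD79B symbol was accepted for its large clone change, and CD3D passed the filter on low values only through the OCI-AML2 clones. Whether any lymphoid cells were present was not tested. No erythroid marker of 8 was settled, and of 9 epithelial and stromal markers only COL1A2 was, at most 0.02 TPM in any OCI-AML2 library and 1.83 to 3.91 TPM in the OCI-AML3 clones, against 0.06 to 0.25 TPM in OCI-AML3 parental cells.

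Likeness to each gene was measured as Pearson's r of log2(TPM + 1) over the 18 libraries, among 2188 settled sets. These libraries share 6 group means, so r is a description. S100A8 was most like IL2RG (r = 0.992), APOBEC3B (0.990), B3GNT7 (0.988), ALX1 (0.988) and S100A9 (0.987). S100A9 was most like IL2RG (0.992), B3GNT7 (0.991), APOBEC3B (0.990), ALX1 (0.989) and NXF5 (0.988). The symbol of ALX1 was accepted for its large clone change, which also enters its r. IL2RG, the shared chain of several cytokine receptors, averaged 130 TPM in OCI-AML2 clone 1 and 90.7 TPM in OCI-AML2 clone 2, against 9.53 TPM in OCI-AML2 parental cells. B3GNT7, a glycosyltransferase, averaged 26.1 TPM in clone 1 and 30.4 TPM in clone 2, against 4.30 TPM in the same parental cells.

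S100A16 was most like TMCC2 (r = 0.977), OR52K2 (0.977), UTRN (0.971), FAM171B (0.970) and SYT11 (0.968). The symbol of UTRN was accepted for its large clone change, which also enters its r. The r of S100A16 was -0.026 with S100A8 and -0.079 with S100A9. OR52K2, an olfactory receptor gene, averaged 0.163 TPM in OCI-AML3 clone 1 and 0.0833 TPM in OCI-AML3 clone 2, against 17.5 TPM in OCI-AML3 parental cells. SYT11, a synaptotagmin of vesicle traffic, averaged 1.65 TPM in OCI-AML3 clone 1 and 2.03 TPM in OCI-AML3 clone 2, against 17.9 TPM in OCI-AML3 parental cells.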

How the data were processed

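RNA sequencing of 18 libraries in 6 groups was used. The deposited values are TPM, per the file headers. Which aligner, counter and build the authors used is not given in the sources used here, and depth is unknown. All value columns matched a sample by its title, with 0 left over.

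The table holds 6999 lines with 4816 symbols and 5069 distinct sets of values, because lists were stacked and some lines of one list carry another gene's symbol with the replicates of OCI-AML3 clone 1 in another order. In 97.4% of lines a log2 ratio of at least 0.95 stands in a comparison that selects them. Symbols were settled by a repeat under the same name for 575 sets, by the replicate order for 1076, and taken as printed for 673 single lines with a parental log2 ratio under 0.6 and 106 single lines with a clone change of at least 1.5 (log2) reaching 5 TPM. The rules for single lines were set after the table had been seen. Among the genes named, CASP2, S100A6, ALCAM, ANXA1, ANXA5, ITGAM, AZU1, CD3D and HOXA9 rest on a single line with a parental log2 ratio under 0.6. Under S100A8, S100A9 and S100A16 there were 7 lines: 4 were used, 1 belonged to another gene and 2 were unsettled.

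Groups were compared on log2(TPM + 1) values in limma (version 3.58.1, R 4.3.3) by a fit of group means to all 18 libraries, with an intensity trend, two-sided tests and Benjamini-Hochberg adjustment, at a threshold of 0.05, over the 4413 sets that reached 1 TPM in 3 or more libraries. The log2(TPM + 1) scale understates changes of low genes; folds are ratios of mean TPM. The S100A8 to S100A9 ratio was compared by an exact permutation test (Python 3.11.15, scipy 1.17.1). The fit was tested on simulated data. Genes, lists and tests were chosen with earlier results of these data known. The genes named are the 3 S100 genes, CASP2, settled members of the lists (up to 4 of the largest changes per list, and defining members; ANXA1, ITGAM, MMP9, FPR1, FPR2 and others were named after their values were seen, to make counts clear) and the 5 most similar genes, without chromosome Y. An item of 1 list is not reported here. Promoters came from RefSeq (GRCh38.p14), whose gene order was used without coordinates. Replicate numbers did not pair libraries: correlations of same-numbered libraries lay between -0.34 and 0.18, not over 0.1 in every pair.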

Additional observations from a re-analysis of the deposited data

How the results depend on the processing

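Depth is unknown, so low values such as S100A8 in OCI-AML3 cannot be given a counting error, and selection of the table limits every share of sets to the table. Of the values recomputed, 747 changed little, 15 moved further, 8 turned direction and 13 newly passed the threshold. Changing little means that tested values kept their direction and side of the threshold, and untested ones moved by less than the SD between libraries. Counts had to stay within 1.5 times. Part of the 747 was fixed in advance. Leaving out a library of a group not compared cannot change a difference, and tested S100A8 to S100A9 ratios were judged by direction alone. A pseudocount of 0.1 TPM moved S100A16 in both OCI-AML3 clones against parental cells to -8.67, S100A8 in OCI-AML3 clone 2 against parental cells to 1.03 (limma adjusted p = 0.046), and the sets called between the OCI-AML3 clones to 166, against 301. Rescaling by medians of ratios, which shifted the median of all sets by at most 0.07 in size, gave 0.71 for S100A8 in OCI-AML3 clone 2 and -0.31 for S100A16 in OCI-AML2 clone 1, both past the threshold. With only the groups compared in the fit, S100A8 passed in OCI-AML3 clone 2 (0.64) and between the OCI-AML2 clones (0.43), whose levels entered the choice of the gene. With the replicate number as a block, S100A8 in OCI-AML3 passed in clone 1 (0.62, limma adjusted p = 0.0294) and in clone 2 (0.64, limma adjusted p = 0.026); the numbers do not pair the libraries, and the block changed no other call of the 3 S100 genes. Leaving out 1 library at a time gave S100A8 differences between 0.20 and 1.01 for OCI-AML3 clone 1 and between 0.43 and 0.87 for OCI-AML3 clone 2. It turned the direction of small differences between clones: S100A8 in OCI-AML3 (-0.44 to 0.38), S100A16 in OCI-AML2 (-0.20 to 0.06) and the S100A8 to S100A9 log2 ratio in OCI-AML3 (-0.42 to 0.71). It left between 102 and 369 sets called between the OCI-AML3 clones. A minimum log2 difference of 1, chosen after seeing the data, left 1398 and 1374 called sets in OCI-AML3 clones 1 and 2, 640 and 882 in OCI-AML2 clones 1 and 2, 2658 between the parental lines, 7 between the OCI-AML3 clones and 510 between the OCI-AML2 clones. Counting every deposited line on its own, repeats included, also chosen after seeing the data, gave 4713, 4750, 3681, 4096, 5683, 438 and 3599 calls in the same order. The cause of these changes was not tested.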

Other observations

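A second line under the symbol S100A8 and a second under S100A9 could not be tied to a gene. The S100A8 line averaged 4.87 TPM in OCI-AML3 clone 1 and 5.72 TPM in OCI-AML3 clone 2, against 5.94 TPM in OCI-AML3 parental cells, and 56.7 TPM in OCI-AML2 clone 1 and 49.8 TPM in OCI-AML2 clone 2, against 49.4 TPM in OCI-AML2 parental cells. The S100A9 line averaged 7.14 TPM in OCI-AML3 clone 1 and 6.36 TPM in OCI-AML3 clone 2, against 11.5 TPM in OCI-AML3 parental cells, and 54.0 TPM in OCI-AML2 clone 1 and 54.8 TPM in OCI-AML2 clone 2, against 51.0 TPM in OCI-AML2 parental cells. Neither line shows the high level in OCI-AML2 clones that the lines used for these genes show. The single lines under S100A13 and S100B were unsettled as well. The S100A13 line averaged 20.9 TPM in OCI-AML3 clone 1 and 20.6 TPM in OCI-AML3 clone 2, against 17.2 TPM in OCI-AML3 parental cells, and 9.99 TPM in OCI-AML2 clone 1 and 12.4 TPM in OCI-AML2 clone 2, against 7.59 TPM in OCI-AML2 parental cells. The S100B line averaged 5.37 TPM in OCI-AML3 clone 1 and 5.00 TPM in OCI-AML3 clone 2, against 8.74 TPM in OCI-AML3 parental cells, and 32.3 TPM in OCI-AML2 clone 1 and 46.5 TPM in OCI-AML2 clone 2, against 35.6 TPM in OCI-AML2 parental cells. An unsettled second line under S100A10 averaged 0.57 TPM in OCI-AML3 clone 1 and 0.31 TPM in OCI-AML3 clone 2, against 0.787 TPM in OCI-AML3 parental cells, and 115 TPM in OCI-AML2 clone 1 and 16.7 TPM in OCI-AML2 clone 2, against 122 TPM in OCI-AML2 parental cells. An unsettled second line under S100A4 averaged 0.36 TPM in OCI-AML3 clone 1 and 0.563 TPM in OCI-AML3 clone 2, against 0.08 TPM in OCI-AML3 parental cells, and 9.91 TPM in OCI-AML2 clone 1 and 7.53 TPM in OCI-AML2 clone 2, against 6.23 TPM in OCI-AML2 parental cells.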
